A study of Mus musculus with 4 samples.

Results

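Peaks of RNA immunoprecipitation sequencing (RIP-seq) were examined here for their short pieces, those under 100 bases long. The livers were those of male mice of the strain C57BL/6, and a gene delivery virus (adeno-associated virus, AAV) had brought in either NAT10 (AAV-NAT10) or, as the control, GFP (AAV-GFP). For each virus there was 1 immunoprecipitated (IP) and 1 input library, so 4 libraries in total, and the authors deposited 1 list of peaks per virus, each of the IP over its own input. The members were chosen by their listed length alone, as the distinct positions under the limit in either list. There were 6497 of them among 50478 distinct positions. The AAV-NAT10 list held 5566 short pieces of 41511 pieces (13.4%, exact 95% interval 13.1 to 13.7), and the AAV-GFP list held 4133 of 33968 (12.2%, 11.8 to 12.5). At 3202 positions both lists held the same short piece with identical borders.

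The labels do not settle what the antibody bound. They describe RIP with an antibody to a protein or IgG and also carry a library name with ac4C, and their protocol takes the RNA from db/db and lean control animals, of which the titles say nothing. The sources used here give neither the viruses' promoter nor the age or number of the mice, and the libraries' depths are unknown. With 1 library per kind there was no replicate check, the viruses were not tested against each other, and all intervals cover counting error only. A value of one list beside that of the other is therefore not a measured change.

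NAT10 is an enzyme that acetylates cytidine in ribosomal, transfer and messenger RNA, and the product is called ac4C. An antibody pulls down fragments of RNA, and reads from spliced RNA pile up over exons, so a peak on a mature transcript crosses exon borders and is broken into pieces on the genome. Internal exons of vertebrate genes are mostly short, while the last exon, with most of the 3′ untranslated region, is usually the longest. A coding exon whose length is a multiple of 3 can be skipped or repeated without a shift of the reading frame. Such exons are common in genes of repeat proteins.

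Short pieces that lie inside the RefSeq window around another gene's start could be read letter by letter. These windows run from 250 bases before a start to 50 after it in GRCm38.p6, the assembly of mm10, and the lists use mm10. Pieces of a single chromosome were left out before this reading. On the other chromosomes 42 short pieces lay whole inside a window with their flanks, leaving aside 7 whose gene had no single strand. Of these 42, 25 lay in the window of a gene other than their own. All 25 were followed by GT on their gene's strand, the first bases of an intron at a 5′ splice site. Among the 25, the Gripap1 pieces of AAV-NAT10 and AAV-GFP end at the same base, so the same GT is counted for both. Of the other 17, which lay in the window of their own gene's start, 12 were followed by GT and 5 were not, namely those of Zfp84, Sorbs2, Tmem42 and Cdpf1 and the AAV-GFP piece of Ankrd42. Of all 32851 windows, each read on its own gene's strand, 5% had GT at distances from the window's edge taken from the 25 pieces. These distances were not turned for strand. Place and strand were thus not matched to the pieces, and the shares of windows given here are a rough background. AG, the last bases of an intron, stood before 11 of the 25 (44%), against 7.66% of windows, and 11 had both (44%), against 0.38% of windows. The 7 below are examples from these 11, chosen for having both letters, as the borders of a whole internal exon do. Capitals mark the listed piece, lower case the 10 bases on each side, and each is written on its gene's strand.
Dennd1b, chr1:139167671-139167756, plus strand: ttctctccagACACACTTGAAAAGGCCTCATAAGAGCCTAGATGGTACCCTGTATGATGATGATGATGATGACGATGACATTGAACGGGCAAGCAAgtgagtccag
Rgl1, chr1:152539937-152540026, minus strand: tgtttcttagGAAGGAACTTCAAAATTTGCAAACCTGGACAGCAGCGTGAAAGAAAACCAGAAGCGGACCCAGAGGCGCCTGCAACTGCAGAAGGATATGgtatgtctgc
N4bp1, chr8:86851625-86851721, minus strand: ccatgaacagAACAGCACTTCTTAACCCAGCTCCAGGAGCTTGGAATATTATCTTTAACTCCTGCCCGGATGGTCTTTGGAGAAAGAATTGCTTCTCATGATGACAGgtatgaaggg
Xpot, chr10:121599587-121599634, minus strand: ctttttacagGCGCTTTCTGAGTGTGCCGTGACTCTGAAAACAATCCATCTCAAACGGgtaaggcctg
Eif5b, chr1:38032277-38032375, plus strand: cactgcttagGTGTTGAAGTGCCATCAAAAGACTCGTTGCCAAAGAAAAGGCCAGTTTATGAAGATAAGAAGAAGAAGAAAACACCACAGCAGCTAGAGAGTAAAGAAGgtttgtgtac
Parp6, chr9:59637634-59637701, plus strand: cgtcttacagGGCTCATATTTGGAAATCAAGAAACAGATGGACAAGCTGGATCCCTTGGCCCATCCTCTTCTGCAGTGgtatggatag
Rmdn2, chr17:79667951-79668028, plus strand: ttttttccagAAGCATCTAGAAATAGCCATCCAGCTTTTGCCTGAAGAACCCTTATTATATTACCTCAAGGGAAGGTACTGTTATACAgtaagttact

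The first 3 of these pieces were listed with the same borders for both viruses. Dennd1b, which encodes an exchange factor for Rab GTPases, had 86 bases with a fold enrichment of 4.12 and a score of 50.4 in AAV-NAT10, and 4.31 and 72.8 in AAV-GFP. The fold is the authors' ratio of IP over background, and the score is the authors' log10 p-value of the peak turned positive and multiplied by 10, at least 50 in both lists. Rgl1, an exchange factor of the Ral GTPases, had 90 bases with fold 5.4 and score 226 in AAV-NAT10, and 4 and 76.8 in AAV-GFP. N4bp1, whose protein binds the ubiquitin ligase Nedd4, had 97 bases with fold 5 and score 205 in AAV-NAT10, and 3.12 and 57.6 in AAV-GFP.

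The other 4 were found in 1 list each. The 48-base piece of Xpot, the tRNA export receptor, had fold 10.6 and score 590.1 in AAV-NAT10. The 99-base piece of Eif5b, a factor of ribosomal subunit joining, had 3.21 and 90.5 there, and the 68-base piece of Parp6 had 3.97 and 76.5. The 78-base piece of Rmdn2 had 5.37 and 151 in AAV-GFP. Except for Xpot, all scores of these 7 pieces lay below their list's median for pieces of 100 bases or more.

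The lengths ran from 1 to 99 bases in AAV-NAT10 and from 3 to 99 in AAV-GFP, with a median of 82 (quartiles 69 and 92) in both. Together the short pieces covered 436 kb in AAV-NAT10, 1.91% of its peak bases, and 324 kb in AAV-GFP, 1.59%. Few were very short: 55 and 45 pieces were under 30 bases in AAV-NAT10 and AAV-GFP. The 5 commonest lengths were the same in both lists, namely 96 bases (230 pieces in AAV-NAT10 and 173 in AAV-GFP), 99 (212 and 159), 93 (195 and 151), 90 (191 and 146) and 98 (183 and 136). All but the last are multiples of 3. Of the short pieces 2255 in AAV-NAT10 (40.5%, 39.2 to 41.8) had a length divisible by 3, against 36.8% (36.3 to 37.3) of the longer pieces. In AAV-GFP 1685 did (40.8%, 39.3 to 42.3), against 36.7% (36.2 to 37.3). This was not particular to short pieces. Just outside the limit, at 100 to 114 bases, the share was 39.4% (37.5 to 41.2) in AAV-NAT10 and 39.9% (37.9 to 42) in AAV-GFP, and these intervals overlapped those of the short pieces. It was 36.2% and 35.7% at 130 to 149 bases, and 38.4% and 38.6% at 150 to 199 bases.

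**Figure D1:**
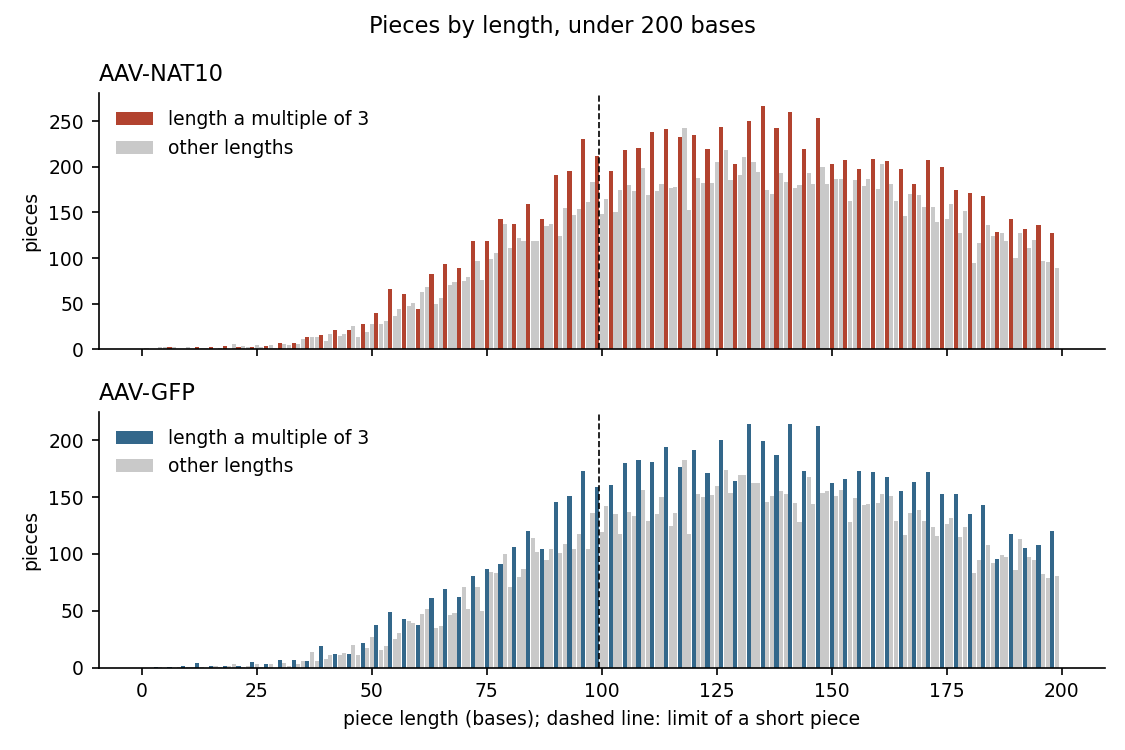
Number of pieces (vertical axis) at each length up to 199 bases (horizontal axis), AAV-NAT10 above AAV-GFP, with lengths divisible by 3 in colour and other lengths in grey. Coloured bars stand above their grey neighbours at many lengths on both sides of the dashed limit, as at 96 bases with 230 and 173 pieces.

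The limit fell within the rise of the length distribution. In AAV-NAT10 there were 183 pieces of 98 bases and 212 of 99 just inside it, and 148 of 100 and 165 of 101 just outside. In AAV-GFP there were 136 and 159 inside, and 119 and 142 outside. Their median folds were 6.04, 6.19, 5.88 and 6.19 in AAV-NAT10 at 98, 99, 100 and 101 bases, and 6.15, 5.85, 5.85 and 5.95 in AAV-GFP. The folds just inside and just outside the limit overlapped in both lists.

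The short pieces were weaker than the rest of their list. Their median fold was 5.64 (quartiles 4.4 and 7.42) in AAV-NAT10, against 6.67 (4.98 and 9.13) for pieces of 100 bases or more, and 5.66 (4.58 and 7.27) in AAV-GFP, against 6.44 (4.9 and 8.59). The median score was 163 against 352 in AAV-NAT10 and 137 against 274 in AAV-GFP. The same held within genes that had both kinds: the median fold of the short pieces was below that of the longer ones in 1850 of 2406 genes in AAV-NAT10 (76.9%) and in 1398 of 1846 in AAV-GFP (75.7%), with a median difference of -1.3 and -1.16 (short minus longer). Length was used to choose the members and comes from the same peak call as fold and score, so these differences are a description. Since the peaks appear cut to exons, a listed fold or score can stem from a peak that reaches beyond the piece.

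Very strong short pieces were few. Scores reached 3233 at most in both lists, and a score of at least 3100 was counted as the ceiling. In AAV-NAT10 13 short pieces reached it (0.234%), against 8.01% of longer pieces, while 7 did in AAV-GFP (0.169%), against 5.17%. Irs2 and Ipo7 were picked out from the pieces at the ceiling after their values were seen. In Irs2, an adaptor of the insulin receptor, a 51-base piece stood at the ceiling in both lists, with folds of 18.1 in AAV-NAT10 and 10.8 in AAV-GFP. In Ipo7, a nuclear import receptor, a 98-base piece did so too, with folds of 10.2 and 11.8. A 74-base piece of Cpt1a, the enzyme that controls entry of fatty acids into mitochondria, was at the ceiling in AAV-NAT10 (fold 10.7) and at 2749 in AAV-GFP (fold 6.78).

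The short pieces were spread over many genes but were not even among them. In AAV-NAT10 2479 of 8508 genes with a piece had a short one (29.1%, 28.2 to 30.1), and in AAV-GFP 1934 of 7462 did (25.9%, 24.9 to 26.9). In all 1661 genes had a short piece in both lists, and 2752 of 8889 had one in either. About as many genes had a single short piece as had several: 1264 in AAV-NAT10 (51%) and 1019 in AAV-GFP (52.7%) had 1. At the other end, 268 genes had at least 5 in AAV-NAT10 and held 33% of its short pieces, and 180 did in AAV-GFP with 29.1%. Genes with a short piece had a median of 8 pieces of any length, and genes without had 2, in both lists. By chromosome, Y left aside, the short share was lowest on X (10.3%) and highest on 12 (17.5%) in AAV-NAT10, and lowest on 17 (9.77%) and highest on 12 (14.7%) in AAV-GFP.

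Large genes of many exons led the count. Dock5, an activator of the GTPase Rac, had 16 short pieces of 42 in AAV-NAT10 and in AAV-GFP 15 of 41, and 13 of them had identical borders. Its relatives Dock4 and Dock1 had 14 of 43 and 13 of 39 in AAV-NAT10, and 14 of 44 and 7 of 27 in AAV-GFP. All 7 short pieces of Dock1 in AAV-GFP recurred with the same borders in AAV-NAT10. Over all short pieces, 57.5% in AAV-NAT10 and 77.5% in AAV-GFP had identical borders in the other list. These shares are the background for such counts here and in the genes below. Usp34, a deubiquitinase, had 15 of 46 in each list, all 15 with identical borders, while its relative Usp24 had 14 of 45 in AAV-NAT10 and in AAV-GFP 7 of 34. Other genes with many short pieces included Vps13c, a bridge-like lipid transfer protein (13 of 62 in AAV-NAT10 and in AAV-GFP 11 of 60), Gphn, gephyrin (12 of 22 and 12 of 21, all identical), and Nbeal1 (10 of 41 and 11 of 42). Stab2 had 15 in each list, and Mycbp2, Utrn, Nedd4l, Col27a1 and Phkb had 12 each in AAV-NAT10.

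**Figure D2:**
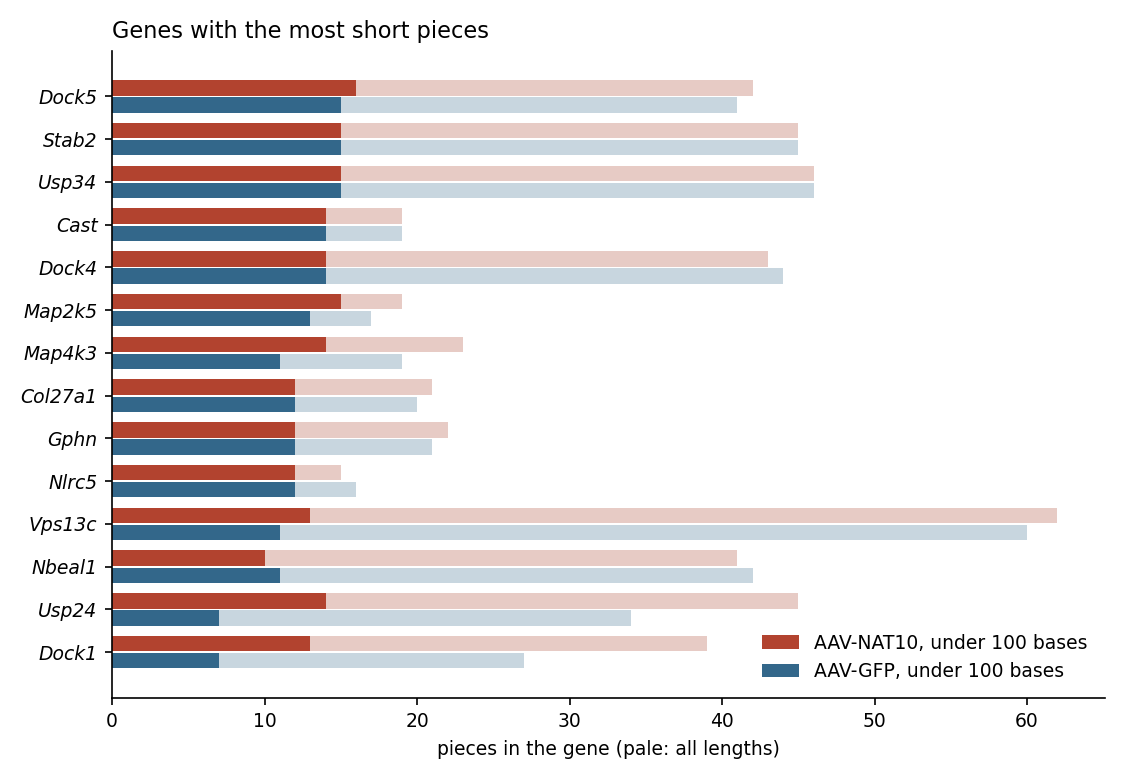
Number of pieces (horizontal axis) in the 14 genes that were among the 10 with the most short pieces in either list, with the AAV-NAT10 bar above the AAV-GFP bar of each gene; full colour marks pieces under 100 bases and the pale bar all pieces. Short pieces made up most of the bar in Map2k5, Cast and Nlrc5 and a minority of it in Vps13c, Nbeal1 and the Dock and Usp genes.

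In a pair of kinase genes, most pieces were short. Map2k5, the MAP kinase kinase upstream of Erk5, had 15 short pieces of 19 in AAV-NAT10 and in AAV-GFP 13 of 17, of 30 to 74 bases, and all 13 recurred. Its 30-base piece had a score of 1342 in AAV-NAT10 and 1599 in AAV-GFP, the highest of its short pieces in both, with folds of 6.5 and 6.73. Of its short pieces 3 had a length divisible by 3 in each list. Map4k3, a kinase of the JNK and nutrient-sensing pathways, had 14 of 23 in AAV-NAT10 and in AAV-GFP 11 of 19, with 10 identical and folds of 3.34 to 18.3 in AAV-NAT10 and 4.59 to 12.7 in AAV-GFP.

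Cast and Nlrc5, both of which code for proteins with repeats, had short pieces of lengths divisible by 3 in both lists. Cast, calpastatin, the inhibitor of calpain proteases with repeated inhibitory domains, had 14 short pieces of 19 in each list. All 14 were multiples of 3 in both, from 48 to 99 bases, and 13 had identical borders. The fold of its short pieces ran from 3.03 to 8.23 with a median of 5.73 in AAV-NAT10, and from 4.68 to 9.57 with a median of 5.65 in AAV-GFP. Nlrc5, a regulator of MHC class I genes with a long run of leucine-rich repeats, had 12 short pieces of 15 in AAV-NAT10 and in AAV-GFP 12 of 16. The 12 were the same pieces and all multiples of 3, of 81 to 93 bases, with folds of 4.37 to 12 in AAV-NAT10 and 4.98 to 13.3 in AAV-GFP.

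Collagens, whose triple helix is coded by exons built from a short repeated unit, had the highest short share of the gene lists read that held at least 20 pieces in both lists. Of their pieces 23 of 76 were short in AAV-NAT10 (30.3%) and in AAV-GFP 18 of 49 (36.7%), against 13.4% and 12.2% of all pieces. Nearly all lay in a pair of genes. Col27a1, a fibrillar collagen best known from cartilage, had 12 short pieces of 21 in AAV-NAT10 and in AAV-GFP 12 of 20. In AAV-GFP these were 54 or 45 bases long without exception, and in AAV-NAT10 all but 2, of 71 and 27 bases, were. Of the 12 in each list, 6 had identical borders in the other list, and the remaining 6 lay at other places. Over all short pieces 57.5% in AAV-NAT10 and 77.5% in AAV-GFP had identical borders there. Col5a3, a chain of collagen V, had 8 of 16 in AAV-NAT10 and in AAV-GFP 5 of 12, all multiples of 3, and the 5 recurred. Col14a1 had 2 and none, Col4a1 1 and none, and Col3a1 none in AAV-NAT10 and 1 in AAV-GFP.

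Lengths divisible by 3 throughout were rare among genes with at least 5 short pieces. There were 5 such genes of 268 in AAV-NAT10, namely Cast, Nlrc5, Col5a3, Kidins220 and Lgr4. There were 8 of 180 in AAV-GFP, among them Cast, Col27a1, Nlrc5, Col5a3 and Neb, nebulin, another repeat protein. The opposite, no such length at all, was found in 17 genes in AAV-NAT10 and 10 in AAV-GFP. Itch, a ubiquitin ligase, had 7 short pieces of this kind in AAV-NAT10 and 8 in AAV-GFP, and Rictor, a subunit of mTOR complex 2, had 6 and 5. These genes were picked out by the lengths themselves after they were seen.

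Motor protein genes had a higher short share than their list, ubiquitin ligases a share near it, and cytoskeletal linkers a lower one. Motor proteins had 60 short pieces of 368 in AAV-NAT10 (16.3%) and in AAV-GFP 54 of 310 (17.4%), against 13.4% and 12.2% of all pieces, with Kif13b (6 and 7), Myo10 (6 and 7) and Kif1c among them. Ubiquitin ligases had 79 of 562 (14.1%) and 59 of 507 (11.6%). Of these 23 of the 79 shared no base with an AAV-GFP piece, where 41.6% of all short pieces in AAV-NAT10 did not, and 2 of the 59 shared none with an AAV-NAT10 piece, where 21.5% of all short pieces in AAV-GFP did not. Nedd4l, which marks ion channels for removal, had 12 in AAV-NAT10 with folds of 4.95 to 14.9, and 6 in AAV-GFP with folds of 3.81 to 5.95. Mycbp2 had 12 of 71 pieces and 10 of 68. Cytoskeletal linkers had a lower share, 37 of 479 in AAV-NAT10 (7.72%) and in AAV-GFP 35 of 454 (7.71%), and Utrn, utrophin, held 12 and 11 of these.

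Nuclear transport, splicing and translation genes stood closer to their list's share (13.4% in AAV-NAT10 and 12.2% in AAV-GFP) than motor proteins did. Chromatin genes lay below that share in both lists. Nuclear pore and transport genes had 52 of 359 in AAV-NAT10 (14.5%) and in AAV-GFP 43 of 296 (14.5%), with Nup155, a pore scaffold protein, at 5 in each and Ipo8 at 5 and 4. Chromatin genes had 54 of 464 (11.6%) and 39 of 435 (8.97%). Chd2, a chromatin remodeller, had 4 short pieces in each list, all with identical borders and all multiples of 3. Splicing factors had 15 of 131 (11.5%) and 14 of 106 (13.2%). Luc7l2, a U1 snRNP factor, had a pair of 30 and 99 bases in both lists. Translation factors and tRNA synthetases had 20 of 139 (14.4%) and 11 of 110 (10%), led by Eif4g3 (6 and 4) and Lars (5 and 3). Of the 24 ribosomal protein genes read, 2 had a piece in each list, and Rps3, which has many pseudogene copies, had 1 short piece, in AAV-NAT10.

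Among liver metabolic genes the short pieces gathered in a few large enzymes. Genes of fatty acid and triglyceride synthesis had 19 of 157 in AAV-NAT10 (12.1%) and in AAV-GFP 14 of 131 (10.7%), and 4 of the members with a piece had a short one in each list. Acaca, the acetyl-CoA carboxylase of fatty acid synthesis, had 11 of 47 in AAV-NAT10 and in AAV-GFP 10 of 43, 7 with identical borders, with median folds of 8.1 and 7.64. Acacb, the mitochondrial form that restrains fatty acid oxidation, had 6 of 37 in AAV-NAT10 and in AAV-GFP 2 of 25, with median folds of 4.48 and 4.74. Genes of cholesterol synthesis and uptake had 5 of 46 (10.9%) and 1 of 26 (3.85%), and none of these 6 overlapped a piece of the other list. Of all short pieces 41.6% in AAV-NAT10 and 21.5% in AAV-GFP had no overlap. Sqle, squalene epoxidase, had 1 in each list, of 96 bases in AAV-NAT10 and 97 in AAV-GFP, at different places. Lss, lanosterol synthase, had 2 in AAV-NAT10 and none in AAV-GFP.

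Fatty acid uptake and oxidation genes had 6 of 68 in AAV-NAT10 (8.82%) and in AAV-GFP 6 of 46 (13%), with Acsl4 at 2 and 3 and Cpt1a at 1 in each. Genes of glucose metabolism and insulin signalling had 14 of 105 (13.3%) and 8 of 88 (9.09%). Pik3cb had 3 in AAV-NAT10 and none in AAV-GFP. Lipoprotein, bile acid and ABC transporter genes had a low share, 14 of 212 (6.6%) and 14 of 186 (7.53%), with Abca8a (4 and 1), Abca8b (4 and 3) and Abcc6 (2 and 4) holding most of them. Plasma proteins had 1 of 53 in AAV-NAT10 (1.89%), in the coagulation factor gene F5. In AAV-GFP they had 0 of 30, which allows a share of up to 10% there, taking 3 counts as the limit of a count of 0.

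Among markers of other liver cells, the short pieces lay in a few genes. Of the 14 sinusoidal endothelial markers 3 had a short piece in each list, 17 of 123 pieces in AAV-NAT10 (13.8%) and in AAV-GFP 18 of 109 (16.5%). Stab2, the hyaluronan scavenger receptor of these cells, held 15 of 45 in each list, 14 of them identical, with a median fold of 10.2 in AAV-NAT10 and 8.68 in AAV-GFP. Most of its short pieces were multiples of 3, 10 in AAV-NAT10 and 11 in AAV-GFP. Stellate cell markers had 1 short piece of 56 in AAV-NAT10 (1.79%), in Hgf, and 2 of 53 in AAV-GFP (3.77%), in Reln and Col3a1. Macrophage markers had 3 of 70 (4.29%) and 1 of 51 (1.96%). The 91-base piece of Ptprc, the leukocyte antigen CD45, was in both. Cholangiocyte markers had 8 of 52 (15.4%) and 4 of 43 (9.3%), all in Pkhd1 (5 and 4) and Anxa4 (3 and none). Over all pieces the short share was 13.4% in AAV-NAT10 and 12.2% in AAV-GFP.

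By overlap of at least 1 base, short pieces were found again in the other list less often than longer ones. In AAV-NAT10 2316 short pieces (41.6%, 40.3 to 42.9) shared no base with an AAV-GFP piece, against 26.5% (26 to 26.9) of longer pieces and 28.5% of all. In AAV-GFP 888 (21.5%, 20.2 to 22.8) shared none with an AAV-NAT10 piece, against 11.3% (11 to 11.7) of longer pieces and 12.6% of all. By identical borders the order differed between the lists: 57.5% (56.2 to 58.8) of short pieces in AAV-NAT10 had an identical piece in AAV-GFP, against 60.6% (60.1 to 61.2) of longer ones, and in AAV-GFP 77.5% (76.2 to 78.7) had one in AAV-NAT10, against 73.1% (72.6 to 73.6). The lists differ in size. With all pieces the overlapped share of short pieces was 58.4% in AAV-NAT10 and 78.5% in AAV-GFP. With 16984 pieces of highest score taken from each, which evens the size and also leaves out weaker pieces, it was 55.8% (52.6 to 58.9) and 49.6% (46.6 to 52.6). The share grew with length in both lists. Under 30 bases it was 40% in AAV-NAT10 and 51.1% in AAV-GFP, at 50 to 69 bases 52.9% and 72.7%, at 85 to 99 bases 62.8% and 82.5%, and at 100 to 114 bases 66.1% and 83.1%.

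**Figure D3:**
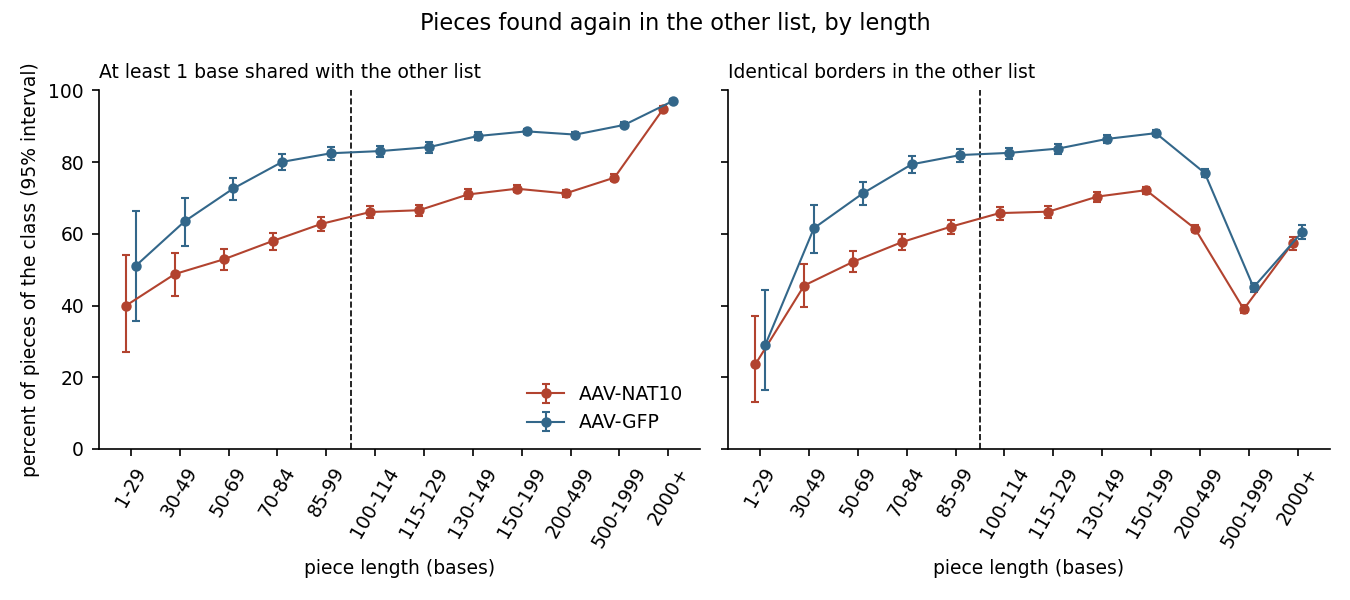
Percent of pieces in 12 length classes (horizontal axis, bases) that share at least 1 base with the other list (left) or have identical borders there (right), AAV-NAT10 in red and AAV-GFP in blue, with exact 95% intervals and a dashed line at the limit. Up to the class of 150 to 199 bases the left and right values lie close together from 50 bases on; at 500 to 1999 bases identical borders fall to 39% and 45.1%.

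Where a short piece recurred, it mostly recurred whole. Of the overlapped short pieces 98.5% in AAV-NAT10 and 98.7% in AAV-GFP had both borders identical, against 82.5% and 82.4% of the overlapped longer pieces. The nearest lengths did so as much, with 99.4% in AAV-NAT10 and 99.3% in AAV-GFP of the overlapped pieces of 100 to 199 bases, and the difference lay in pieces of 200 bases or more, with 67.3% in each list. A further 48 in AAV-NAT10 and 43 in AAV-GFP shared 1 border, and none shared neither. In 37 of the 48 and 30 of the 43 the piece of the other list was the longer one. Examples at the shortest end were a 4-base piece of Cpne3 in AAV-NAT10 inside a 62-base one in AAV-GFP, and a 5-base piece of Dock1 in AAV-NAT10 inside one of 724 bases. In the other direction, AAV-NAT10 pieces of 302 bases in Krba1 and 136 in Nfyb enclosed AAV-GFP pieces of 4 and 9 bases. Over the 3202 identical pairs, all under the same gene name in both lists and in 1542 genes, the Spearman correlation of the folds was 0.58, and it was 0.62 over 12398 identical pairs of 100 to 199 bases. These are descriptions over pieces that share a gene, an exon length and its base composition.

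The recurring pieces reached down to microexon length. Stx16, a syntaxin of vesicle fusion, and Ero1lb, an oxidase of the endoplasmic reticulum, each had a 12-base piece with identical borders in both lists. The Stx16 piece had fold 3.88 and score 495 in AAV-NAT10, and 4.4 and 661 in AAV-GFP. The Ero1lb piece had 4.29 and 135 in AAV-NAT10, and 3.71 and 107 in AAV-GFP. The nuclear envelope gene Syne1 had one of 13 bases with folds of 9.07 in AAV-NAT10 and 8.23 in AAV-GFP. Macf1, a linker of actin and microtubules, had one of 18 bases with folds of 4.68 and 5.39. Ranbp9 and Ranbp10, a pair of related genes, each had one of 23 bases, with folds of 5.23 and 5.82 in AAV-NAT10 and 5.68 and 7.22 in AAV-GFP. Arhgef12 had one of 24 bases with folds of 14 and 13. These genes were picked out after their values were seen, as identical pieces of at most 24 bases, which also included Snap47 (20 bases) and Desi1 (22).

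Short pieces without a counterpart were the weaker ones. Their median fold was 4.76 in AAV-NAT10, against 6.45 for overlapped short pieces, and their median score was 106 against 229.8. In AAV-GFP the folds were 4.87 against 5.95 and the scores 96.7 against 152. Set against longer pieces of like score, the gap in recurrence was smaller. In the lowest of 5 equal score classes of AAV-NAT10, 35.3% (33.2 to 37.6) of short pieces were overlapped, against 38.2% (36.7 to 39.8) of pieces of 100 to 199 bases and 38.2% (36.3 to 40) of longer ones. In the highest class the shares were 81.8% (75.6 to 87), 86.7% (85.2 to 88.1) and 94.7% (94.1 to 95.2). In AAV-GFP they were 67% (64.4 to 69.5), 73.1% (71.5 to 74.6) and 72.6% (70.7 to 74.5) in the lowest class, and 89.7% (83.6 to 94.1), 93.9% (92.6 to 95) and 97.2% (96.7 to 97.7) in the highest. The lowest class held 33.7% of the short pieces in AAV-NAT10 and 32.7% in AAV-GFP, and the highest 3.45% and 3.53%. The classes were set within each list and chosen after the data were seen.

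Most short pieces without a counterpart lay in genes with other pieces in the other list, 2157 in AAV-NAT10 (93.1%) and 854 in AAV-GFP (96.2%). The like share of longer pieces was not computed, so this cannot be called particular to short pieces. Of the genes with a short piece, 122 in AAV-NAT10 (4.92%, 4.1 to 5.85) had no piece of any length in AAV-GFP, against 16.8% of all its genes. In AAV-GFP 33 did (1.71%, 1.18 to 2.39), against 5.11%. Genes with a short piece also had more pieces, as given above. Anxa6, a calcium-dependent membrane binding protein, stood out among the 122. It had 10 short pieces of 14 in AAV-NAT10, from 44 to 96 bases with folds of 3.12 to 6.42 and scores of 75.8 to 386, and no piece in AAV-GFP. Atp6v1d, a subunit of the proton pump of lysosomes, Atxn10 and Chchd3, a protein of mitochondrial cristae, each had 3 short pieces in AAV-NAT10 and none in AAV-GFP.

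Rnaset2b, a lysosomal ribonuclease with a close copy, had 5 short pieces in AAV-NAT10 and none in AAV-GFP. They lay at separate places of chromosome 17, with pieces of 61 and 75 bases at both, the first group at 6981108 to 6996508 and the other at 8130225 to 8145602, so its reads may belong to either copy. The genes with a short piece in AAV-GFP alone had fewer. Ppp3cc, a catalytic subunit of calcineurin, had 2, of 30 and 98 bases with folds of 3.87 to 9.53. Hsd3b5, a steroid dehydrogenase of male mouse liver, had 1 of 62 bases at the score ceiling with a fold of 8.98. Slco1b2, an organic anion transporter of hepatocytes, had 1 of 39 bases with a fold of 11.7. Egfl7 and Aadat had 1 each.

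In a few genes every piece was short, 73 in AAV-NAT10 and 88 in AAV-GFP, and most of them had a single piece (60 and 71). In 37 of the 73 and 67 of the 88 the other list had a piece in the same gene, and in 24 and 54 it had one of 100 bases or more. Over all genes with a piece, 16.8% in AAV-NAT10 and 5.11% in AAV-GFP had none in the other list, a smaller share than among the genes with short pieces only. The like share of all genes with a single piece was not computed, so this cannot be called particular to short pieces. Pts, an enzyme of tetrahydrobiopterin synthesis, had the same pair of 57 and 85 bases in both lists and nothing else. Crcp had 4 of 4 short in AAV-NAT10 and in AAV-GFP 3 of 4. Atp6v1c1, another subunit of the lysosomal proton pump, had 8 of 12 in AAV-NAT10 and in AAV-GFP 4 of 4, and all 4 recurred. Styx and Zbtb20, a transcription factor of liver and brain, had 3 of 3 in AAV-GFP, again all recurring, among 5 and 6 pieces in AAV-NAT10.

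Along the gene, short pieces lay mostly in its body, as did pieces of 100 to 199 bases. By the strand and ends of their RefSeq gene, 4430 short pieces could be placed in AAV-NAT10 and 3285 in AAV-GFP. Their median place was 56.4% of the genomic length from the 5′ end in AAV-NAT10 and 56.1% in AAV-GFP. For pieces of 100 to 199 bases it was 61.6% and 61.1%, and for pieces of 200 or more 75.9% and 77.4%. The last of 10 equal parts of the gene held 7.45% of the short pieces in AAV-NAT10 and 7.58% in AAV-GFP, against 9.44% and 9.32% of the pieces of 100 to 199 bases and 34% and 34.8% of the pieces of 200 or more. Only 1 short piece in AAV-NAT10 and 3 in AAV-GFP ended at the annotated 3′ end of their gene (0.0226% and 0.0913%), against 0.0497% and 0.0351% of the pieces of 100 to 199 bases and 15.7% and 16.1% of the pieces of 200 or more. At the annotated 5′ end there were 11 and 7 (0.248% and 0.213%). There the pieces of 100 to 199 bases had 0.284% and 0.298%, and those of 200 or more 2.08% and 1.42%.

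**Figure D4:**
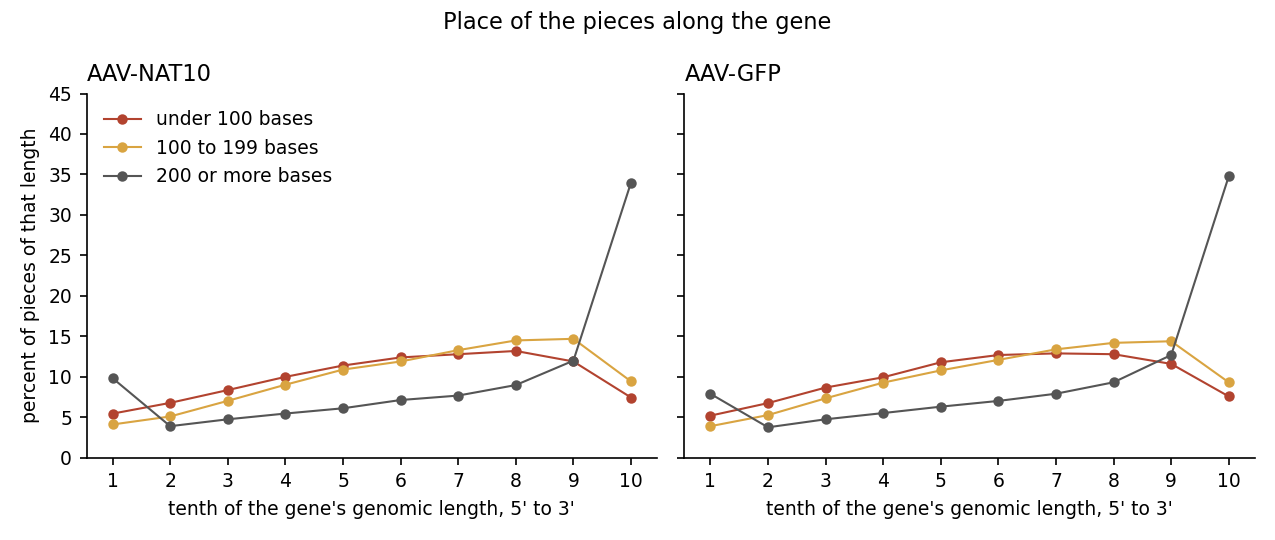
Percent of pieces of each length group (vertical axis) whose centre lies in each of 10 equal parts of the gene from 5′ to 3′ (horizontal axis), AAV-NAT10 left and AAV-GFP right. Short pieces are most frequent in parts 5 to 9, between 11.4% and 13.2% each in both lists, while pieces of 200 or more bases reach 34% and 34.8% in the last part.

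Folds far above the rest were found in few short pieces. In AAV-NAT10 the first was a 6-base piece of Nemf, a factor of ribosome quality control, with a fold of 100.5 at the score ceiling and no overlap in AAV-GFP. Next came a 91-base piece of Mug2, a murinoglobulin with close gene copies, with a fold of 35.9, against 5.17 for the same piece in AAV-GFP. Tns1, tensin, followed with 78 bases at 28.9, then the olfactory receptor gene Olfr1033 with 91 bases at 25.8, both without a counterpart. A pair of pieces of the kinesin Kif1c, of 80 and 95 bases, had folds of 24.9 and 24.8 in AAV-NAT10, against 14.1 and 11.3 in AAV-GFP. Wdfy3 (22.6), Ttc7 (21.6), Utrn (21.5), Zbtb44 (20.5) and Cdc42bpb (20.4) completed the first 10 genes, each with a counterpart in AAV-GFP at 16.2, 9.76, 6.78, 17.1 and 13.4.

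Ranked by the AAV-GFP list, Mup4 came first, with a fold of 3.98 over 46 bases in AAV-NAT10 and of 189 over 45 bases in AAV-GFP, and both stood at the score ceiling. Mup4 codes for a major urinary protein, and reads could come from its close copies. After it, most folds of the lists were near each other. The 92-base piece of Ptch1, the Hedgehog receptor, had 20 in AAV-NAT10 and 21.9 in AAV-GFP. Atp13a3 had 19.5 and 18.4, Ube3b 18.6 and 17.5, Tet3, an enzyme that oxidises 5-methylcytosine, 18.3 and 17.3, and Zbtb44 20.5 and 17.1. A 76-base piece of Usp34 had 6.28 in AAV-NAT10 and 16 in AAV-GFP. A 95-base piece of Wdfy3 had 13.8 and 16.5, Clmn had 19.1 and 15.8, and Fam120a had 13.2 and 15.7.

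The shortest pieces of all mostly had no counterpart or were the edge of a longer one. In AAV-NAT10 they were 1 base of B4galt5 (fold 9.05), 4 bases each of Cpne3 and Zfp467, and 5 bases each of Dock1 and Prdm2. In AAV-GFP they were 3 bases of Phf11c (fold 4.98, score 923), 4 of Krba1, 6 of Daam1, 8 of Aen and 9 of Nfyb. None of these 10 had identical borders in the other list.

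Nat10 itself had 1 short piece in each list, at different places. In AAV-NAT10 it was 63 bases long at chromosome 2, 103750221 to 103750283, with a fold of 14.8 at the score ceiling. In AAV-GFP it was 99 bases long at 103743044 to 103743142, with fold 4.88 and score 109. Neither overlapped a piece of the other list, and both lengths are multiples of 3. The median fold of the longer Nat10 pieces was 15.1 in AAV-NAT10 and 5.03 in AAV-GFP, close to the short piece of the same list in each. The AAV-NAT10 virus itself carried NAT10, so reads there may come from the virus or from the mouse gene, which was not tested. Of the other nucleolar genes read beside it only Nop58 had a short piece, of 65 bases in AAV-GFP.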

How the data were processed

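Each of the 2 peak lists deposited by the authors compares an IP library with its input. Per the file headers, peaks were named by MACS; the sources used here give no version, aligner or filters. Per the submitters' processing notes, positions are in mm10. The deposited fold is a linear ratio over background, the deposited score is the log10 of a p-value turned positive and multiplied by 10, and the deposited FDR was read as a percent (2.53 to 5.88 for short pieces in AAV-NAT10 and 4.38 to 11.1 in AAV-GFP). All are the authors' values for single peaks, used only to describe and rank within a list. The listed length was used as deposited by the authors and equalled end minus start in all rows; no position was repeated. Starts were increased by 1.

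Computed here with Python 3.11.15, pandas 2.3.3 and scipy 1.17.1 were counts, medians, exact (Clopper-Pearson) 95% intervals, and overlaps of at least 1 base. The overlap search was tested on simulated data. RefSeq (GRCm38.p6) gave strands, gene ends and sequences, and its names matched 5494 of 5566 and 4084 of 4133 short pieces in AAV-NAT10 and AAV-GFP. No genome was used, so exon borders were judged by borders shared between the lists, and motifs were not searched. Depth is unknown.

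The members, the 22 gene lists and the alternatives were chosen with earlier results of these data known. The naming rule took, in each list, the 10 genes with most short pieces, the 10 with the highest fold, the 5 shortest pieces, the 5 genes with most short pieces among genes with short pieces only and among genes without a piece in the other list, up to 2 members per gene list, and Nat10. Predicted genes were passed over, and 1 selected gene is not reported here.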

Additional observations from a re-analysis of the deposited data

How the results depend on the processing

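Read counts and depth are unknown, so what depth limits cannot be given. No paired analysis was possible because each list comes from 1 IP and 1 input library. A count was taken as near the value reported when within 1.5 times of it, and a share or median when within the 95% interval of the value reported, so a count could move further than a share. By this, 16 of 46 repeats stayed near. Among them, counting repeated rows could not change a count, as no position was repeated. Others were leaving out copied and predicted genes, overlap over at least 0.5 of both pieces, identical borders, and borders within 3 bases. A score of at least 100 stayed near for the AAV-NAT10 pieces (3946, against 5566), for genes with a short piece (1875 and 1376, against 2479 and 1934) and for genes found in 1 list alone. So did equal numbers of top peaks for genes found with AAV-GFP alone.

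The other 30 moved, most of them because the alternative takes fewer or more pieces by construction. In the order AAV-NAT10 and AAV-GFP, a limit of 50 bases gave 340 and 256 pieces (0.819% and 0.754%), 47.4% and 61.3% overlapped, and median folds of 5 and 5.07. A limit of 150 bases gave 15566 and 12153 pieces (37.5% and 35.8%), 64.7% and 82.9% overlapped, and median folds of 6.11 and 6.05. With a score of at least 100 the short share was 11.5% and 10.1%, the overlapped share 52.2% and 75.7%, and the AAV-GFP count 2718. With a fold at or above the list's median there were 2034 and 1562 pieces (9.76% and 9.18%). With equal numbers of top peaks the overlapped share was 55.8% and 49.6%, so the order of the lists turned, and genes with a short piece and none in the other list numbered 26 in AAV-NAT10, against 122, and 44 in AAV-GFP, against 33. Genes with at least 2 short pieces numbered 1215 and 915. The search for CNN repeats and the match to annotated exons were not run.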

Other observations

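By the peak lists' own pathway names, read after the data were seen, 132 pathways held at least 150 pieces in both lists. Glucagon signalling had 96 short pieces of 505 in AAV-NAT10 (19%) and in AAV-GFP 73 of 429 (17%), against 13.4% and 12.2% of all pieces. Phkb, a subunit of the kinase that activates glycogen phosphorylase, held 12 of these in AAV-NAT10 and 11 in AAV-GFP, and Acaca 11 and 10. Protein processing in the endoplasmic reticulum had 108 of 628 in AAV-NAT10 (17.2%) and in AAV-GFP 74 of 494 (15%). Like shares were found in amoebiasis (17.5% and 15.8%), oxytocin signalling (17.1% and 15.4%), arrhythmogenic right ventricular cardiomyopathy (17% and 15.4%) and dopaminergic synapse (17.1% and 14.8%). At the low end stood cell adhesion molecules, with 15 of 208 in AAV-NAT10 (7.21%) and in AAV-GFP 8 of 163 (4.91%). Cytokine receptor interaction had 20 of 283 (7.07%) and 15 of 228 (6.58%). Pathways share genes, and none of these shares was tested.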
